A study of Mus musculus with 2 samples.

Results

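The 9 genes described here encode enzymes that move nitrogen between glutamine, glutamate and other amino acids: Gls2, Glul, Glud1, Got1, Got2, Gpt, Gpt2, Asns and Psat1. They were taken by symbol from the deposited expression table, in which each stands on a single gene ID, 9 of 42392 gene IDs in all. The series profiled hair follicle stem cells from the skin of female mice of genotype K15-CrePGR; Shh+/-, sorted by flow cytometry for high integrin alpha 6 and for CD34. K15-CrePGR is a Cre recombinase fused to the progesterone receptor and driven by a keratin 15 promoter, a promoter that is active in the bulge of the follicle. Its ligand RU486 was given for 8 days, and both samples share this genotype and treatment. The samples, both titled controls, are 1 from follicles at rest (telogen) and 1 from follicles in early growth (anagen II-III), 2 in all. Only the anagen library could be tied to a column of the table, and the telogen library was not analysed here. The labels do not state age or how many animals were pooled. All values are thus from 1 library without a replicate: none has an error, no test could be made, and a difference between neighbouring genes cannot be set against any spread.

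Glutamine carries nitrogen between and within cells. Glutaminases release ammonia from it to give glutamate, and glutamine synthetase runs the opposite reaction. Glutamate dehydrogenase and the transaminases then link glutamate with 2-oxoglutarate, an intermediate of the tricarboxylic acid cycle, so that amino groups pass to and from aspartate, alanine and phosphoserine. Asparagine synthetase and the serine pathway transaminase are textbook targets of ATF4, the transcription factor of the integrated stress response that the series title names.

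A pair of members, Asns and Got1, hold the letters of a C/EBP-ATF element, TGATGNAA, in the stretch before their start site. The element was searched on both strands in RefSeq windows of 300 bases (build GRCm38.p6, 250 before the start site and 50 after it), in the 8 windows of the 7 members other than Gls2 and Gpt, Psat1 having 2. It occurs in 3.97% of all 32851 windows. The sequences below are shown because these are the 2 member windows with a match. Both are 60 bases, 5′ to 3′ on the minus strand, with the match in capitals. The Asns stretch is chr6:7693210-7693269, with the match 23 to 16 bases before the start site, and reads as the element itself. The Got1 stretch is chr19:43524671-43524730, with the match 102 to 95 bases before the start site, and reads as the reverse complement of the element.
Asns: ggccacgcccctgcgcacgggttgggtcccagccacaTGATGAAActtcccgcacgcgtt
Got1: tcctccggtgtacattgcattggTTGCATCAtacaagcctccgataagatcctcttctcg
Neither window of Psat1 holds these letters, nor do those of Glul, Glud1, Got2 and Gpt2. A match is a run of letters and shows no binding. All 8 windows were richer in CG dinucleotides than the median window, with 17 (Glul) to 51 (Glud1) against a median of 7. The G and C content ran from 57.3% (Got1) to 81.0% (Glud1), against a median of 52.7%.

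All 9 members stood at 1 TPM or more in the bulk library of sorted anagen cells. They ranged over 57.1-fold, a figure that rests on the low value of Gls2. TPM is a length-normalised share of the library's transcripts, so levels of different genes can be set side by side within it. The mitochondrial glutamate dehydrogenase gene Glud1 was highest at 70.3 TPM, followed by the mitochondrial aspartate transaminase gene Got2 at 47.0 TPM and the phosphoserine transaminase gene Psat1 at 33.4 TPM. The cytosolic aspartate transaminase gene Got1, the glutamine synthetase gene Glul and the asparagine synthetase gene Asns stood close together at 18.9, 16.8 and 16.1 TPM. The alanine transaminase genes were lower, Gpt at 9.16 TPM and Gpt2 at 2.20 TPM, and the glutaminase gene Gls2 was lowest at 1.23 TPM. Glud1 and Got2 together made up 54.5% of the members' summed level of 215.1 TPM, with a pseudogene row of Got2, described below, left out.

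**Figure D1:**
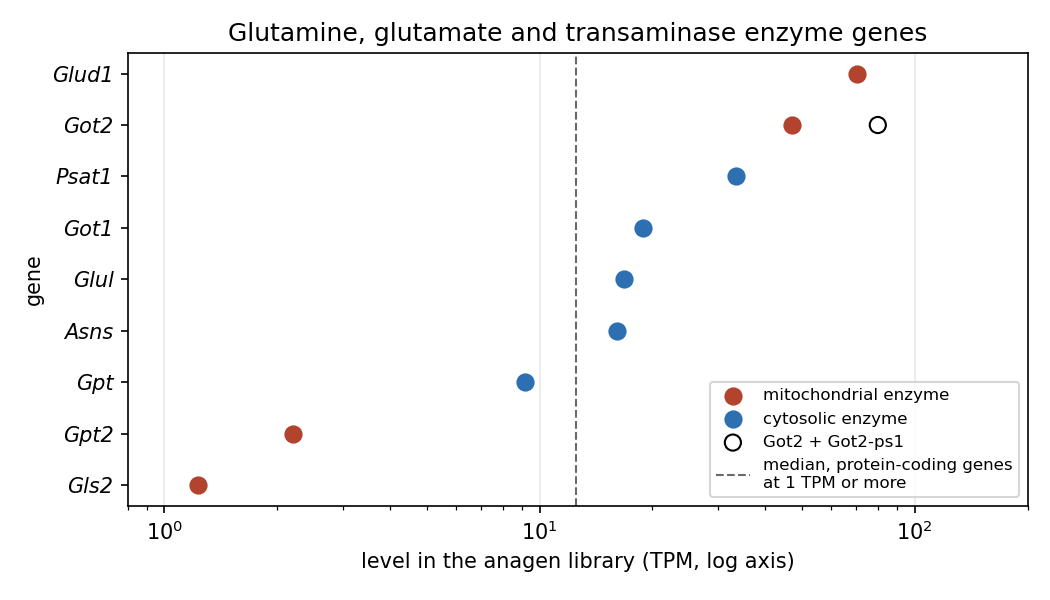
Level of each of the 9 members in the anagen library, in TPM on a log axis, with mitochondrial enzymes in red and cytosolic enzymes in blue. Points are single values without error. The dashed line is the 12.5 TPM median of protein-coding genes at 1 TPM or more, with 6 members to its right and Gpt, Gpt2 and Gls2 to its left; the open circle adds the pseudogene row Got2-ps1 to Got2, at 79.8 TPM.

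Where the members lay in the transcriptome depended on which genes were taken as expressed. All 9 reached 1 TPM, against 55.9% of 20843 nuclear protein-coding genes, and 7 reached 5 TPM, against 42.4%. The median of the members was 16.8 TPM and that of all protein-coding genes 2.41 TPM. Among the 11655 protein-coding genes at 1 TPM or more the median was 12.5 TPM, a level that 6 of 9 members exceeded, against 28.0% of all protein-coding genes. Among the 8835 protein-coding genes at 5 TPM or more the median was 18.5 TPM, and 4 of 9 members exceeded it: Glud1, Got2, Psat1 and, narrowly, Got1. Glul and Asns were then above 45.7% and 43.8% of those genes and Gpt above 21.3%, while Gpt2 and Gls2 did not reach 5 TPM. Glud1 was 5.63-fold above the 12.5 TPM median and ranked 1139th of all protein-coding genes. Got2 was 3.77-fold above it and Psat1 2.68-fold. Got1, Glul and Asns exceeded it by 1.52-, 1.35- and 1.29-fold. Gpt was 1.36-fold below it, Gpt2 5.67-fold and Gls2 10.1-fold. The 62 other genes of the pathway lists described below were also more often at 1 TPM than protein-coding genes as a whole, with 43 of them, or 69.4%, at that level and a median of 7.12 TPM.

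**Figure D2:**
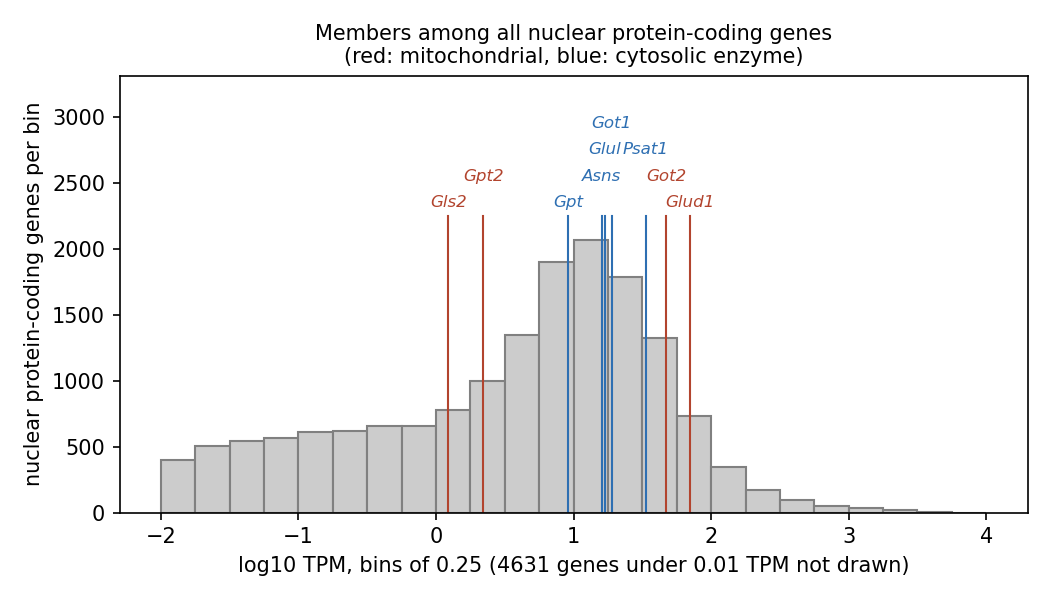
Number of nuclear protein-coding genes in bins of 0.25 of log10 TPM in the anagen library (grey bars), with a vertical line at each member's level (red for mitochondrial and blue for cytosolic enzymes). The 4631 genes under 0.01 TPM are not drawn. Glud1 and Got2 lie on the right slope of the distribution, Got1, Glul and Asns near its peak, and Gpt2 and Gls2 on its left slope.

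For glutamine itself, the synthetase gene Glul stood at 16.8 TPM, above 77.0% of protein-coding genes. Gls2, the liver-type glutaminase gene, stood at 1.23 TPM, a value 13.7-fold lower. Gls2 is only one source of glutaminase transcripts, so this ratio does not set glutamine synthesis against glutamine breakdown. Each gene shares its locus with another row of the table. Gls2 (chromosome 10, 128194635 to 128210004) overlaps Spryd4, which stood at 5.75 TPM, 4.67-fold above Gls2. Glul (chromosome 1, 153899929 to 153909723) overlaps the microRNA gene Mir8114, listed at 8.50 TPM. No source used here says whether reads were counted by strand, and the part of such overlaps in either value was not tested.

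Glul is also abundant in fat, muscle and macrophages, cells that a skin sort could carry over. Of 6 fat cell genes, 2 reached 1 TPM, Fabp4 at 12.5 TPM and Lpl at 5.43 TPM. Adipoq, Plin1, Cidec and Lep were between 0.0672 and 0.281 TPM. Among all protein-coding genes, 55.9% reached 1 TPM. Of 7 skeletal muscle genes, 1 reached 1 TPM, Mylpf at 4.20 TPM, and the other 6 were at 0.400 TPM or less. Of 8 leukocyte and macrophage genes, 6 reached 1 TPM, led by Cd74 at 13.2 TPM, with Ptprc at 0.264 TPM, and the 8 summed to 36.4 TPM. Fibroblast genes were higher, with each of 7 at 1.44 TPM or more, Col3a1 highest at 287 TPM and a sum of 891 TPM. The highest genes of the other marker lists were Krtdap (769 TPM) for suprabasal, Mgst1 (93.7 TPM) for sebaceous, Plvap (4.65 TPM) for endothelial, Mlana (12.6 TPM) for melanocyte, Pmp22 (47.0 TPM) for Schwann and Hbb-bs (99.6 TPM) for erythroid cells. For the labelled cell type, 10 of 10 listed bulge genes stood between 16.1 TPM (Nfatc1) and 3364 TPM (Krt15). They include Cd34 and Itga6, on which the cells were sorted, so the presence of these was set by the sort. The part of other cells in the level of Glul, or of any other member, was not tested. In a bulk sample, fewer cells of a type and less RNA per cell cannot be told apart.

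For glutamate, Glud1 (chromosome 14, 34310727 to 34345033), which converts glutamate to 2-oxoglutarate and ammonia, led the members. In the list of 9 genes for glutamate dehydrogenase, proline and ornithine, 8 reached 1 TPM, against 55.9% of all protein-coding genes. The median of this list was 19.2 TPM. Only Oat, the mitochondrial ornithine transaminase gene that links ornithine with glutamate semialdehyde, was above Glud1 in it, at 165 TPM, 2.34-fold higher. Aldh4a1, of proline breakdown to glutamate, stood at 36.9 TPM, and Aldh18a1, the first enzyme of proline synthesis from glutamate, stood at 19.2 TPM. Pycrl stood at 13.2 TPM, while Prodh and Pycr1 stood at 3.85 and 3.04 TPM. Prodh2 was listed at 0.

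The list for glutamate decarboxylation and GABA had the lowest median of the 8 pathway lists. It was 0.263 TPM, the level of the GABA transporter gene Slc6a13. Against 55.9% of all protein-coding genes, 2 of the 5 listed genes were at 1 TPM or more. These were Aldh5a1 at 3.25 TPM and Abat at 3.05 TPM, both of GABA breakdown. The glutamate decarboxylase gene Gad2 stood at 0.0151 TPM and Gad1 was listed at 0. The list for glutamate entry into glutathione and its recycling was the highest, with 7 of 8 genes at 1 TPM or more and a median of 60.4 TPM. It holds none of the 9 members. Its Gclc, the catalytic subunit of the enzyme that joins glutamate to cysteine, stood at 89.2 TPM, above Glud1, and Oplah, which returns 5-oxoproline to glutamate, at 353 TPM.

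The aspartate transaminase pair and the alanine transaminase pair were ordered in opposite ways. Each pair has a mitochondrial and a cytosolic enzyme for the same reaction. For aspartate, the mitochondrial gene Got2 stood at 47.0 TPM and the cytosolic gene Got1 at 18.9 TPM, a ratio of 2.48. For alanine, the mitochondrial gene Gpt2 stood at 2.20 TPM and the cytosolic gene Gpt at 9.16 TPM, so that Gpt was 4.16-fold higher. Between the pairs, Got1 was 2.07-fold above Gpt and Got2 was 21.3-fold above Gpt2. Got2 and Gpt2 both lie on chromosome 8, with 10.3 Mb between them (95864133 to 95888401 and 85492576 to 85528902). Got1 (chromosome 19, 43499752 to 43524605) shares its chromosome with Psat1, and Gpt lies on chromosome 15 (76696726 to 76699675).

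The level of Got2 is uncertain, because the table also lists a pseudogene of it, Got2-ps1, at 32.8 TPM. A pseudogene that resembles its parent can take reads from it, and the split between the rows was made by the authors' counting. If both rows are summed, Got2 comes to 79.8 TPM, of which the pseudogene row is 41.1%. The ratio to Got1 would then be 4.22 in place of 2.48, and Got2 would stand 1.14-fold above Glud1 in place of below it. The order within the pair, Got2 above Got1, is the same either way. No row was found whose symbol is that of another member followed by -ps. Pseudogenes named in any other way were not searched for, so other members may have them too.

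Among 20 transaminase and related amidotransferase genes, 12 reached 1 TPM, against 55.9% of all protein-coding genes. All 5 listed members were among the 12, and 7 of the 15 other genes were. The median of the 20 was 4.31 TPM. Oat held 47.5% of their summed level, Got2 13.6%, Psat1 9.65% and Got1 5.47%. Bcat2, the mitochondrial branched-chain transaminase gene, stood at 30.3 TPM, near Psat1. It was 76.5-fold above its cytosolic counterpart Bcat1 at 0.397 TPM. As Bcat1 was under 1 TPM, the size of that ratio is uncertain. The kynurenine transaminase genes Kyat1 and Kyat3 stood at 15.2 and 5.58 TPM. Agxt, Agxt2, Aadat and Etnppl were at 0.117 TPM or less, and Tat and Got1l1 were listed at 0. Gpt2 was the lowest of the 12 that reached 1 TPM.

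Got1 and Got2 also serve the malate-aspartate shuttle, which carries reducing equivalents from the cytosol into mitochondria. All 7 genes of this list exceeded 5 TPM, a level that 42.4% of protein-coding genes reached. The median of the list was 47.0 TPM, the level of Got2 without its pseudogene row, and it shares the uncertainty of that level. The malate dehydrogenase genes had the same order as the aspartate transaminases, with mitochondrial Mdh2 at 203 TPM 3.12-fold above cytosolic Mdh1 at 65.1 TPM. Of the carriers, Slc25a11, which exchanges malate for 2-oxoglutarate, stood at 61.5 TPM, and the aspartate-glutamate carriers Slc25a12 and Slc25a13 were lower at 10.6 and 6.05 TPM. The carriers for aspartate were thus below both Got genes, while Slc25a11 was above Got1, and below Got2 only if the pseudogene row is added.

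Asns (chromosome 6, 7675165 to 7693209), which moves the amide group of glutamine to aspartate, stood at 16.1 TPM. Of 13 glutamine amidotransferase and related genes, 11 reached 1 TPM, against 55.9% of all protein-coding genes. Those above Asns were Ctps2 at 41.1 TPM, Cad at 30.2 TPM and Ctps at 21.8 TPM, enzymes of pyrimidine nucleotide synthesis. The purine enzymes Pfas, Gmps and Ppat were below Asns, at 9.94, 7.34 and 4.98 TPM, and Gfpt1, which starts hexosamine synthesis, stood at 6.91 TPM. Gfpt2 and Cps1 were under 1 TPM, at 0.966 and 0.669 TPM. Cps1 is listed as a related gene, since its enzyme uses free ammonia in place of glutamine. The median of the list was 6.91 TPM. The asparagine-cleaving enzymes were lower, Asrgl1 at 2.27 TPM and Aspg at 0.374 TPM, so that Asns was 7.06-fold above Asrgl1. In the list for aspartate and asparagine 7 of 12 genes reached 1 TPM, a share near that of all protein-coding genes. Adsl, Adss and Asnsd1 led at 27.2, 19.7 and 18.0 TPM, and the urea cycle genes Ass1 and Asl followed Asns at 10.8 and 10.04 TPM.

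Psat1 (chromosome 19, 15905123 to 15925059), which passes an amino group from glutamate to 3-phosphohydroxypyruvate in the making of serine, stood at 33.4 TPM. It was within a narrow range of the other enzymes of its pathway, 0.957 times the level of Psph, the last enzyme, with Phgdh, the first, 1.30-fold above it. Psat1 was 2.08-fold above Asns. These are RNA levels of a control library, and they were compared with no serine-deprived or stressed sample.

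**Figure D3:**
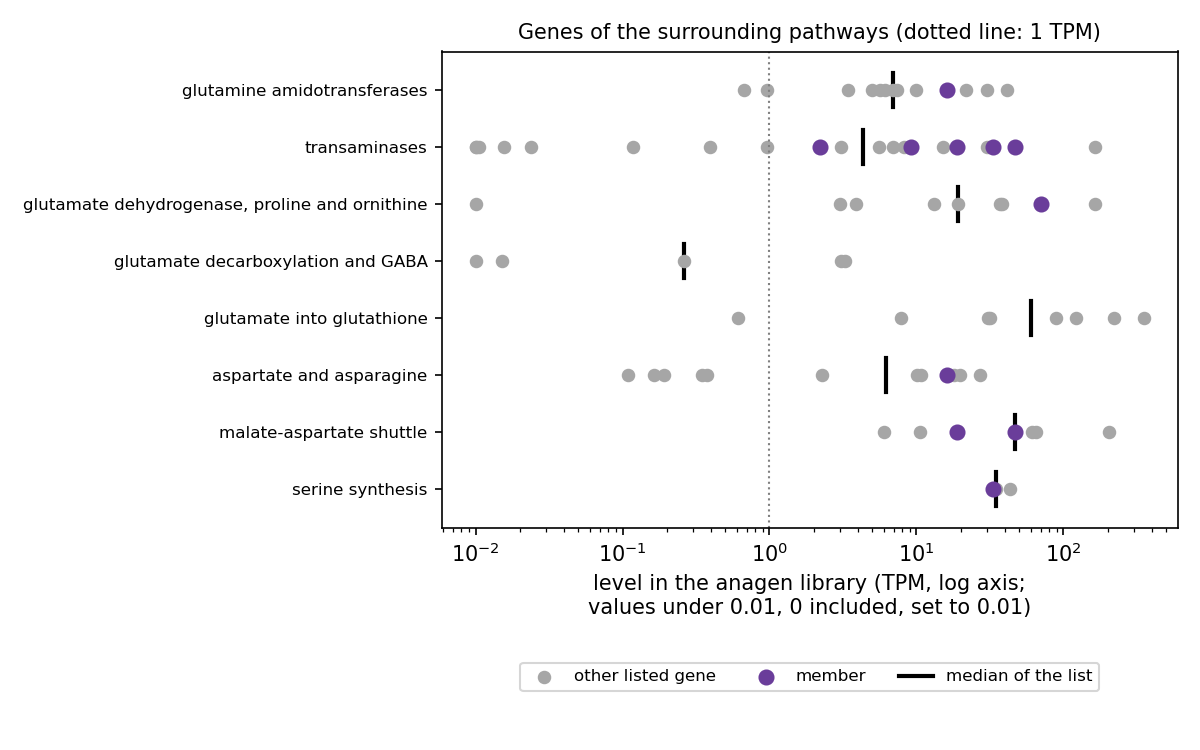
Levels in TPM (log axis) of the genes of 8 pathway lists in the anagen library, with members in purple, other listed genes in grey and the median of each list as a black bar. The dotted line is 1 TPM, and values under 0.01, 0 included, are drawn at 0.01. Members lie at 2.20 TPM or higher in every list that holds one, while the transaminase, proline and GABA lists extend to 0.

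Across the 8 lists, 50 of 69 genes, each counted once, reached 1 TPM, against 55.9% of all protein-coding genes. By compartment, the 4 mitochondrial members summed to 121 TPM, without the row of Got2-ps1 at 32.8 TPM. Glud1 and Got2 stood at one end of the members' range and Gpt2 and Gls2 at the other. The 5 cytosolic members summed to 94.4 TPM and spanned a narrower range, from 9.16 to 33.4 TPM.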

How the data were processed

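The authors deposited gene levels as TPM, per the file headers. The submitters' processing notes name the aligner Bowtie2 2.2.9, the quantifier RSEM 1.2.30 and build mm10, and the sources used here do not give annotation, strand setting or filters. Read depth cannot be had from TPM, so values have no counting interval. Of 12 columns of per-sample values, the one numbered 1 is the anagen sample, whose title alone bears that number; the other 11 were not used.

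Each gene ID was used once. Missing symbols came from a gene name table, the higher ID was taken where a symbol had several, and gene types and positions came from RefSeq (GRCm38.p6, the assembly of mm10) by symbol. Levels, ratios, ranks and counts at 1 TPM or more were computed in Python 3.11.15 with pandas 2.3.3 and numpy 2.4.6, tested on simulated data, and plotted with matplotlib 3.10.9. Compartments are textbook knowledge. The members and lists were chosen with earlier results of these data known. The rule named the 9 members, listed pathway genes at 1 TPM or more and the highest marker of each list; other genes, Got2-ps1, Spryd4 and Mir8114 among them, were named after their values were seen. A further list of glutamine enzymes and a planned comparison of proteins are not reported here.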

Additional observations from a re-analysis of the deposited data

How the results depend on the processing

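No value has a replicate, so no library could be left out, and no paired analysis was possible because only 1 sample could be tied to a column. The count of members was 9 at any value above 0 and 7 at 5 TPM or more, and that of listed pathway genes 65 and 42, against 50 at 1 TPM. The median of the members, 16.8 TPM, came to 29.1 TPM when values were rescaled leaving out mitochondrially encoded genes and the top 50, and to 35.1 TPM when rescaled over nuclear protein-coding genes. Such rescaling multiplies every level by 1.73 or 2.09 and leaves ratios and order as they are. As a geometric mean it was 14.5 TPM with a pseudocount of 1 and 13.5 TPM with a pseudocount of 0.1. The ratio of Got2 to Got1 was 2.41 with a pseudocount of 1 and 4.22 with the pseudogene row added, an alternative chosen after seeing the data. The ratio of Gpt2 to Gpt, 0.241, was 0.315 and 0.249 with pseudocounts of 1 and 0.1, and that of Glul to Gls2, 13.7, was 7.99 and 12.7. These 3 ratios kept their direction in every setting tried. Against genes at 1 TPM or more in place of all protein-coding genes, the share below a member fell for all 9, from 77.0% to 58.8% for Glul. It was 45.7% for Glul against genes at 5 TPM or more. These backgrounds hold fewer genes. Summing gene IDs changed no member.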
